A study of Mus musculus with 10 samples.

Results

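The genes described here encode glycosyltransferases and sulfotransferases, enzymes that build and sulfate sugar chains, with the m6A peaks listed on their transcripts in mouse brain. They were chosen by name, as every gene of either peak list whose symbol begins like those of the heparan, chondroitin and keratan sulfate enzymes, the hyaluronan synthases, or the galactosyl-, GlcNAc-, GalNAc-, sialyl- and fucosyltransferases. This gave 79 genes of the 8516 with a peak, and the RefSeq gene table lists all 79 as protein-coding. Methylated RNA was mapped in cortex and hippocampus at postnatal day 5 by m6A-seq, in which an antibody against N6-methyladenosine (m6A) enriches RNA fragments (IP) that are compared with unselected RNA (input). The wild-type (WT) group had 3 IP and 3 input libraries. The Mettl14 KO group had 2 of each, and in these animals Nestin-Cre, active in the neural lineage, removed Mettl14, whose protein is the partner of METTL3 in the complex that writes m6A on mRNA. The sources used here do not give strain, sex, the floxed allele or whether WT animals carried Cre, and the labels name a culture medium as well as the tissue. Cells outside the neural lineage keep the gene under this Cre. The labelled tissue could not be checked against marker genes, since the peak lists hold no expression levels, and read depth is unknown.

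Glycosyltransferases of the Golgi add single sugars to proteins and lipids, and sulfotransferases then place sulfate on defined positions of the chains. Heparan and chondroitin sulfate chains hang on proteoglycan core proteins through a shared linker and bind growth factors and guidance cues. In the developing brain, polysialic acid on NCAM, the HNK-1 epitope, gangliosides and chondroitin sulfate are known for their parts in migration, axon growth and plasticity.

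For a few peaks a stretch of sequence could be read, since it fell inside a 300-base promoter window or a miRNA hairpin of the RefSeq tables (build GRCm38.p6). The stretches shown come from retained peaks of Hs3st4, Mgat4b and Chst2, where a KO peak lies over a WT peak, and from a WT peak near the start of Mgat2. The Chst2 stretch is part of the WT peak and lies outside the KO peak. They were searched for the five-letter m6A consensus, which is A, G or T, then A or G, then AC, then A, C or T, and matches would stand in capitals.

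Hs3st4, chr7:123983635-123983704, plus strand, the first 70 bases of both the WT and the KO peak: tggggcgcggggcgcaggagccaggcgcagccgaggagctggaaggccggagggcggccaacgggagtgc
Mgat4b, chr11:50225365-50225471, plus strand, the first 107 bases of the KO peak: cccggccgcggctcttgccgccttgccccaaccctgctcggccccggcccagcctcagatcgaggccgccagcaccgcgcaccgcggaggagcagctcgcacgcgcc
Mgat2, chr12:69184247-69184317, plus strand, the first 71 bases of a WT peak: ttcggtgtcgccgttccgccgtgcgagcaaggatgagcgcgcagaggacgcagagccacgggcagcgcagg
Chst2, chr9:95407221-95407270, minus strand, the first 50 bases of the gene and of a WT peak: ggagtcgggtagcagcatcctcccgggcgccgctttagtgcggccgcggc

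None of these 4 stretches held the consensus on either strand. They are not all that could be read: a stretch of 20 bases in a Chst12 peak held 0 matches, and a stretch of 98 bases in a Chpf2 peak held 0 on the gene's strand and 2 on the other. For comparison, 32851 RefSeq promoter windows were cut to their last bases at the same length. Of these, 65.2%, 78.7%, 65.6% and 54.4% held it on the strand of the window's own gene, in the order shown. On either strand, 88.3%, 94.8%, 88.6% and 80.4% did. The stretches are parts of their peaks, 38.7% of the KO peak of Hs3st4 and 59.1% of that of Mgat4b, and a missing match says only that these letters are absent there. The windows that gave the Hs3st4, Mgat4b and Mgat2 stretches belong to genes on the opposite strand, Gm26974, Gm36556 and Rpl36al. For these stretches the shares over promoter windows are not matched in strand or in place within the window. The library kit keeps strand, but nothing here states if peak calling used it, so reads of such overlapping genes may not be separable. One WT peak of 1313 bases, merged from entries named Chpf2 and Mir671, lies in the chondroitin polymerizing factor gene Chpf2. It spans the hairpin of Mir671, the stretch of 98 bases. The mature arms of this miRNA are shown with the seed, bases 2 to 8, in capitals.

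mmu-miR-671-5p, chr5:24592132-24592154, plus strand: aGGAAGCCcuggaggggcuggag
mmu-miR-671-3p, chr5:24592171-24592191, plus strand: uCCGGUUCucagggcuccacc

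The enzyme genes had many peaks in the WT list and few in the KO list. They held 153 WT peaks in 77 genes and 17 KO peaks in 16 genes, a ratio of 9.0, against 4.09 over all peaks (15009 and 3673). Summed exonic peak length was 47.3 kb in WT and 3.01 kb in KO, a ratio of 15.7 against 6.02 over all peaks. A WT peak is called retained here when a KO peak on its strand shares 1 or more exonic bases with it. A lost peak has no such KO peak. Of the WT peaks of the enzyme genes, 9 were retained, 5.88% (Wilson 95% interval 3.13 to 10.8), against 12.9% of all WT peaks. By gene, 8 of 77 had a retained peak, 10.4% (interval 5.36 to 19.2), against 20.6% of all genes with a WT peak. Both intervals lie below the value over all genes, but they cover counting error only and treat peaks of 1 gene as independent. Each genotype has a single consensus list, so no difference between genotypes has a replicate error and none was tested.

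In the lists, 63 of the 79 genes had peaks in WT alone (66.2% of all genes), 14 in both lists and 2 in KO alone (9.38% of all genes). A KO peak was listed for 16 of the 79 enzyme genes and for 33.8% of all genes. Among the 14 genes in both lists, 6 had KO peaks that touched no WT peak, against 23.8% over all genes in both lists. Of the 17 KO peaks, 9 lay over a WT peak (52.9%, interval 31.0 to 73.8), against 57.1% of all KO peaks, a value inside that wide interval. The files hold no expression values. In bulk RNA a peak missing from the KO list cannot be told apart from fewer cells of a type or less of that RNA per cell.

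**Figure D1:**
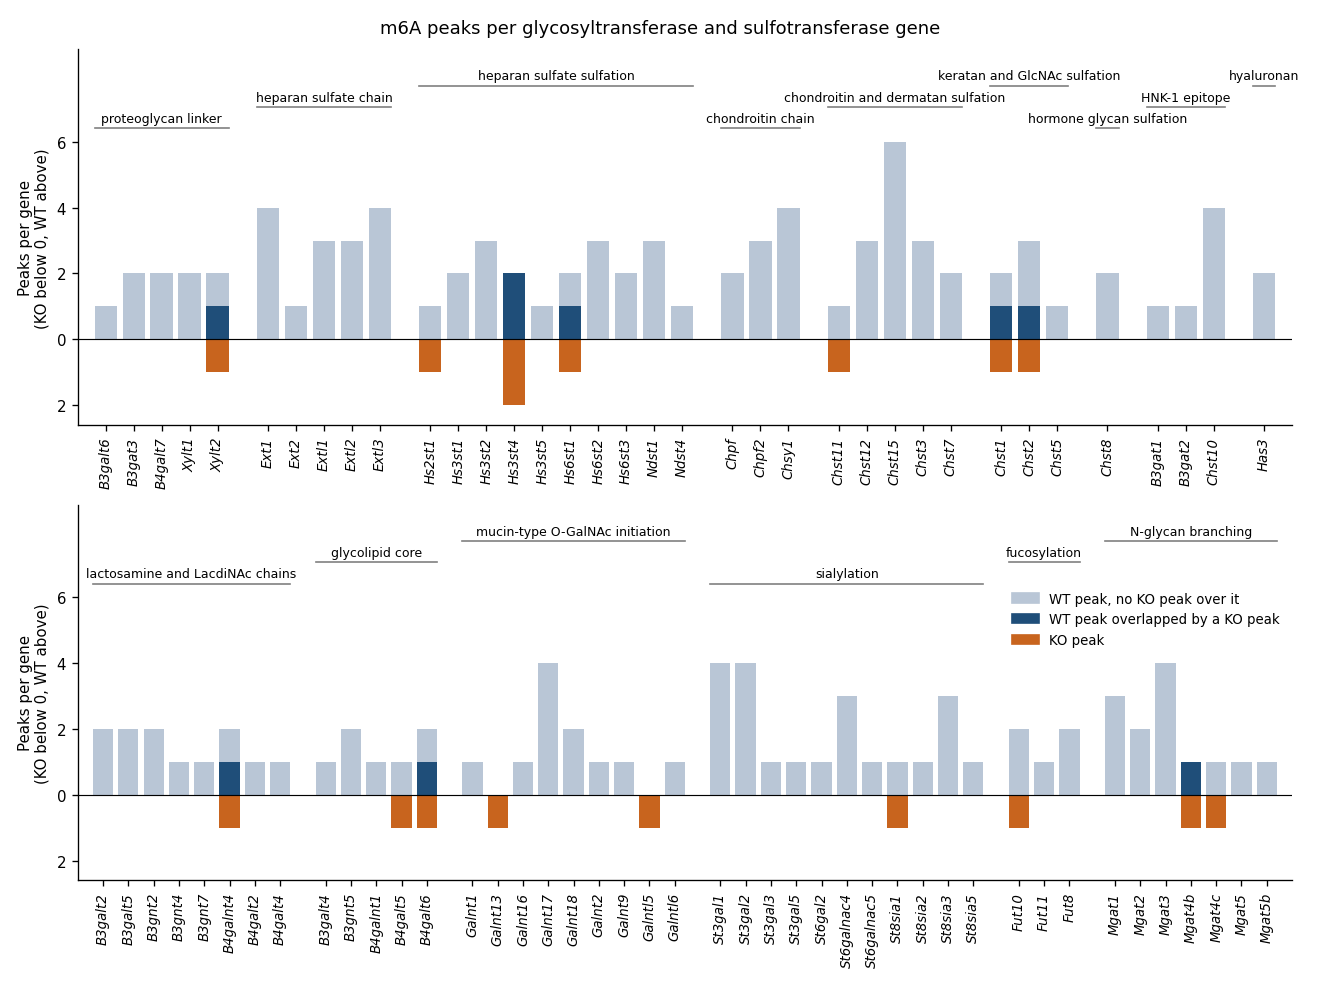
Number of m6A peaks per gene for the 79 enzyme genes, grouped by the chain they build; bars above 0 are WT peaks (dark where a KO peak overlaps) and bars below 0 are KO peaks. Most genes have light bars alone, and retained peaks stand in 8 genes.

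For description the genes were split into 15 families by the chain or step they serve. In every family the interval of the retained share included the 12.9% of all WT peaks, so no single family can be set apart from the background, and a count of 0 in a family says little at these sizes.

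In heparan sulfate synthesis, the retained peaks were those of 2 sulfation genes, Hs3st4 and Hs6st1. Over its chain and sulfation genes together, 3 of 35 WT peaks were retained, 8.57% (interval 2.96 to 22.4) against 12.9% of all WT peaks. All 5 chain polymerization genes had WT peaks, 15 in all, and no KO peak. Ext1 and Ext2, which together form the polymerase, had 4 and 1, and Extl1 and Extl2 had 3 each. Extl3, which starts the chain, had 4 over 1378 exonic bases, of which 3 lay at chr14:65075586-65077887 on the minus strand and 1 at chr14:65054300-65054599. Among the sulfation genes, 10 of the 15 in the gene table had WT peaks, and 3 of these 20 peaks were retained, 15.0% (interval 5.24 to 36.0) against 12.9%. Ndst1, whose enzyme makes the first modification by replacing acetyl with sulfate, had 3 WT peaks and Ndst4 had 1, and neither had a KO peak. The 3-O-sulfotransferase gene Hs3st4 was the only enzyme gene with 2 retained peaks. Its first WT peak, chr7:123983635-124397524 on the plus strand, covered 958 exonic bases on 2 blocks, and a KO peak of 181 bases (chr7:123983635-123983815) began at the same base. Its second, chr7:124397733-124398002, of 270 bases, had identical borders in both lists, the only enzyme peak that did. The related Hs3st1, Hs3st2 and Hs3st5 had 2, 3 and 1 WT peaks and none in KO. Those of Hs3st2 lay at chr7:121393102-121393192, chr7:121500693-121501171 and chr7:121501440-121501738 on the plus strand.

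The 6-O-sulfotransferase gene Hs6st1 retained 1 of 2 peaks. The WT peak, chr1:36103538-36104587, was 1050 bases wide with a listed p-value of 0, and the KO peak inside it covered 211 bases (chr1:36104107-36104317). Its second WT peak, of 271 bases (chr1:36106086-36106356), 225 bases from the gene end, had no KO peak over it. Hs6st2 and Hs6st3, with 3 and 2 WT peaks, had no KO peak. For the 2-O-sulfotransferase gene Hs2st1 the lists pointed to opposite ends of the gene. Its WT peak of 330 bases (chr3:144434305-144434634, minus strand) lay 4769 bases from the gene end, while the KO peak of 90 bases (chr3:144570037-144570126) lay 134 bases from the gene start, with a gap of 135402 bases between them. That KO peak had a listed p-value of 9.1e-07, near the weak end of its list, and 75 KO peaks share this value.

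The 5 genes for the linker that joins these chains to protein held 9 WT peaks, of which 1 was retained, 11.1% (interval 1.99 to 43.5) against 12.9% of all WT peaks. Xylt2 and Xylt1 encode the xylosyltransferases that begin the linker. Xylt2 had a WT peak of 150 bases on 2 blocks (chr11:94670664-94677285, minus strand) that shared 31 bases with a KO peak of 60 bases (chr11:94670783-94677314), while its stronger WT peak of 924 bases (chr11:94663936-94664859) near the gene end had no KO peak. Xylt1, B4galt7 and B3gat3 had 2 WT peaks each and B3galt6 had 1, all without a KO peak.

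The 8 chondroitin and dermatan sulfate genes held 24 WT peaks over 8779 exonic bases, and a single KO peak of 91 bases was listed. Of the 24 peaks 0 were retained, with an interval up to 13.8% that includes the 12.9% of all WT peaks. Chst15, whose enzyme makes the doubly sulfated chondroitin sulfate E unit, had 6 WT peaks, the highest number among the enzyme genes, 4 of them within chr7:132236528-132238323 on the minus strand and 2 within chr7:132270050-132270439. The polymerase genes Chsy1, Chpf2 and Chpf had 4, 3 and 2 WT peaks. The Chsy1 peaks ran from chr7:66125346-66170859, on 2 blocks, to chr7:66171999-66172419 on the plus strand. The widest peak of any enzyme gene, 1558 bases, ran from the end of Chpf into the gene (chr1:75474569-75476126, minus strand). The 4-O-sulfotransferase gene Chst12 and the 6-O-sulfotransferase gene Chst3 had 3 WT peaks each, and Chst7 had 2. All 3 Chst3 peaks were weak, with listed p-values from 2.6e-10 to 5.9e-06. Chst11, another 4-O-sulfotransferase gene, had 1 WT peak of 330 bases (chr10:83191453-83191782) and 1 KO peak of 91 bases (chr10:83193372-83193462), which lay 1589 bases apart.

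Among the sulfotransferase genes of keratan sulfate and GlcNAc, 2 of 6 WT peaks were retained (33.3%, interval 9.68 to 70.0, against 12.9% of all), both at the gene start and neither the strongest of its gene. Chst1, which sulfates galactose of keratan sulfate, had a WT peak of 210 bases centred 330 bases from the gene start (chr2:92599857-92600066), and a KO peak of 121 bases (chr2:92599946-92600066) ended at the same base. Its other WT peak, of 778 bases (chr2:92613667-92614444) with a listed p-value of 0, had no KO peak. Chst2, which sulfates GlcNAc, had a WT peak of 748 bases on 2 blocks (chr9:95406420-95407270) that began at the first base of the gene, whose first bases are printed above, and a KO peak of 210 bases lay inside it (chr9:95406882-95407091, minus strand). The 1464-base WT peak of Chst2 (chr9:95404659-95406122), with a listed p-value of 0, and another of 150 bases (chr9:95403703-95403852) had no KO peak. Chst5 had 1 WT peak, and Chst8, which sulfates GalNAc on pituitary hormones, had 2 (chr7:34674917-34675546 and chr7:34675846-34676115, minus strand), all without a KO peak. Over all sulfotransferases together, 4 of 20 genes had a retained peak (interval 8.07 to 41.6%), near the 20.6% of all genes, and 5 of their 47 WT peaks were retained, 10.6% (interval 4.63 to 22.6) against 12.9%.

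The genes of the HNK-1 epitope, with 6 WT peaks, and of hyaluronan, with 2, had no KO peak (intervals of the retained share up to 39.0% and 65.8%). Chst10, the HNK-1 sulfotransferase gene, had 4 WT peaks within 1943 bases at its end (chr1:38864022-38865964, minus strand), of which 3 were among the strongest 20% of all WT peaks. The glucuronyltransferase genes B3gat1 and B3gat2 of the same epitope had 1 WT peak each, of 91 and 120 bases. Has3, a hyaluronan synthase gene, had 2 WT peaks, of 181 and 121 bases (chr8:106879544-106879724 and chr8:106880683-106880803).

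Sialyltransferase genes held 21 WT peaks in 11 genes. Of these 0 were retained, with an interval up to 15.5% that includes the 12.9% of all WT peaks. St8sia2, a polysialic acid synthase gene, had a single WT peak of 927 bases with a listed p-value of 0 (chr7:73942344-73943270, minus strand). St3gal2, which adds sialic acid to gangliosides, had 4 WT peaks over 1953 exonic bases. The widest, of 871 bases with a listed p-value of 0, lay at chr8:110957087-110957957, and the other 3 within chr8:110970158-110971597 on the plus strand. St3gal1 also had 4 peaks, but narrow ones of 61 to 181 bases that covered 454 bases. St8sia3 and St6galnac4 had 3 WT peaks each. St3gal3, St3gal5 (the GM3 synthase gene), St6gal2, St6galnac5 and St8sia5 had 1 each. The GD3 synthase gene St8sia1 had 1 WT peak of 481 bases (chr6:142828406-142828886, minus strand) and a KO peak of 151 bases (chr6:142821961-142822111) in another place, 6294 bases away and 495 bases from the gene end.

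The 7 N-glycan branching genes held 13 WT peaks, of which 1 was retained, 7.69% (interval 1.37 to 33.3) against 12.9% of all WT peaks. Mgat1, which opens the way to complex N-glycans, had 3 WT peaks, Mgat2 had 2 and Mgat3, which adds the bisecting GlcNAc, had 4. The widest Mgat3 peak, of 1018 bases with a listed p-value of 0, lay at chr15:80211632-80212649. Mgat5 and the brain enzyme gene Mgat5b had 1 each. None of these 5 genes had a KO peak. The retained peak was in Mgat4b, 120 bases from the gene start. Its WT peak of 121 bases (chr11:50225395-50225515) had a listed p-value of 3.9e-06, and 99.2% of WT peaks had one as small or smaller. The KO peak of 181 bases around it (chr11:50225365-50225545) had 1.3e-11. That KO value is shared by 72 KO peaks. Mgat4c had a WT peak of 151 bases (chr10:102388894-102389044) and a KO peak of 390 bases, 1196 bases downstream, the widest KO peak among the enzyme genes (chr10:102390241-102390630, listed p-value 1.6e-71).

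Genes for lactosamine and LacdiNAc chains retained 1 of 12 WT peaks (8.33%, interval 1.49 to 35.4) and genes for glycolipid cores 1 of 7 (14.3%, interval 2.57 to 51.3), against 12.9% of all. B4galnt4, which makes LacdiNAc ends, had a WT peak of 480 bases (chr7:141067893-141068372) that shared 151 bases with a KO peak of 211 bases on 2 blocks (chr7:141067761-141068043), and a second WT peak without one (chr7:141068551-141070560). B3galt2, B3galt5 and B3gnt2 had 2 WT peaks each, and B3gnt4, B3gnt7, B4galt2 and B4galt4 had 1, with no KO peak. The 2 lactosylceramide synthase genes, B4galt5 and B4galt6, both had a KO peak. In B4galt6 a weak WT peak of 121 bases (chr18:20745596-20745716, minus strand), 748 bases from the gene start, shared 91 bases with a KO peak of 150 bases (chr18:20745626-20745775). The strong WT peak of B4galt6, of 330 bases toward the gene end (chr18:20688131-20688460), had no KO peak. In B4galt5 the KO peak of 180 bases (chr2:167300800-167300979) lay 88 bases from the border of the WT peak of 359 bases (chr2:167301068-167301426). B3gnt5 had 2 WT peaks, and B3galt4 and the GM2 synthase gene B4galnt1 had 1 each, none with a KO peak.

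Mucin-type GalNAc-transferase genes held 11 WT peaks in 7 genes and fucosyltransferase genes 5 in 3. In both 0 were retained, with intervals up to 25.9% and 43.4% that include the 12.9% of all WT peaks. Galnt17 had 4 and Galnt18 had 2, in both cases with peaks near either end of the gene (for Galnt17, chr5:130875580-130876509 and chr5:131306533-131306983, minus strand), and Galnt1, Galnt2, Galnt9, Galnt16 and Galntl6 had 1 each. The Galnt2 peak of 686 bases had a listed p-value of 0. The 2 genes with KO peaks alone were also GalNAc-transferase genes. Galnt13, known from neurons, had a KO peak of 150 bases (chr2:55115562-55115711), and Galntl5, a relative known from testis, had one of 268 bases on 3 blocks (chr5:25203253-25217521). Fut8, which adds the core fucose of N-glycans, had 2 WT peaks, one of 121 bases (chr12:77332115-77332235) and one of 540 bases with a listed p-value of 0 (chr12:77475158-77475697). Fut11 had 1 WT peak. Fut10 had 2 WT peaks (chr8:31236255-31236375 and chr8:31260456-31260665), and its KO peak of 91 bases (chr8:31261744-31261834) lay 1078 bases from the nearer one.

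In the 14 genes with peaks in both lists, peak length was compared within each gene. Summed exonic length was lower in the KO list in 12, 85.7% (interval 60.1 to 96.0), near the 90.0% of all genes in both lists, for example 1228 and 451 bases in Hs3st4 and 2362 and 210 bases in Chst2. It was higher in Mgat4b (121 and 181) and Mgat4c (151 and 390). Of the 9 overlapping pairs, 5 had the KO peak wholly inside the WT peak, and the KO list gave the smaller p-value in 2, Mgat4b and B4galt6. These pairs were not counted over all genes, so neither count has a background to be set against. The WT and KO lists rest on different library numbers, which limits any comparison of their p-values. The median KO width was 180 bases over the 17 enzyme peaks and 151 over all KO peaks, and the median WT widths were 211 and 208.

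Several KO peaks of the enzyme genes lay near the gene start. Of the 17, 5 were centred 500 bases or less from the gene start, 29.4% (interval 13.3 to 53.1), against 7.91% of all KO peaks. They belonged to Mgat4b, Hs2st1, Xylt2, Chst2 and Chst1, at 120, 134, 233, 283 and 374 bases. The Xylt2 KO peak lay on 2 blocks (chr11:94670783-94677314), and its midpoint fell on the block nearer the gene start. Within 200 bases there were 2, 11.8% (interval 3.29 to 34.3), which includes the 4.15% of all KO peaks. Within 1000 bases there were 6, with B4galt6 at 703 bases, 35.3% against 11.5%. WT peaks of the enzyme genes did not have this position more often, with 11 of 153 within 500 bases of the start, 7.19% against 7.75% over all WT peaks. Of these 11, 3 were retained, 27.3% (interval 9.75 to 56.6), which includes the 14.5% over all genes. Of the 142 farther in, 6 were retained, 4.23% (interval 1.95 to 8.91) against 12.7%. The windows at the gene start were chosen after the values were seen, distances run along the chromosome with introns included, and 2 of the 5 KO peaks, of Mgat4b and Hs2st1, have p-values shared by 50 or more KO peaks.

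**Figure D2:**
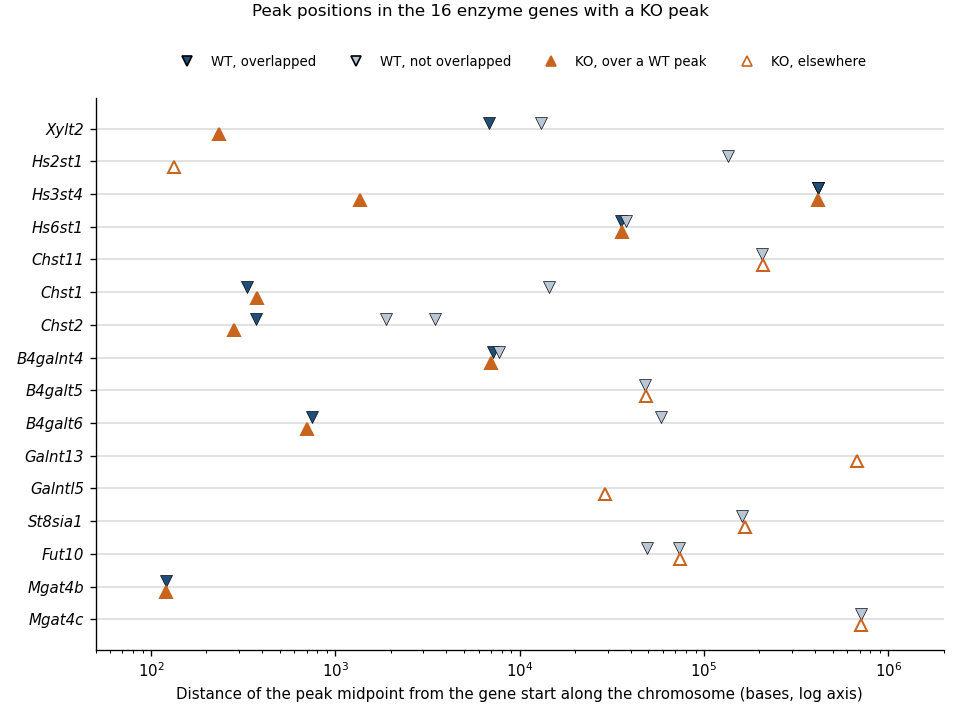
Distance of each peak's midpoint from the gene start, in bases along the chromosome on a log axis, for the 16 enzyme genes with a KO peak; down triangles are WT peaks, up triangles KO peaks, filled dark or orange where the lists overlap. KO peaks of Mgat4b, Hs2st1, Xylt2, Chst2 and Chst1 lie within 500 bases; in Xylt2 and Hs3st4 the overlapped WT peak spans 2 blocks and its midpoint falls on the farther one.

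Many WT peaks of the enzyme genes lay toward the gene end. Their midpoints lay within 1000 bases of the end in 30 of 153, 19.6% (interval 14.1 to 26.6) against 16.4% of all WT peaks, and within 5000 bases in 73.2% (interval 65.7 to 79.6) against 57.2%. Examples are the closing peaks of Hs3st2, B3gat3 and Ext2, at 179, 119 and 388 bases from the end. Of the 30 peaks within 1000 bases 0 were retained (Wilson interval up to 11.4%), against 6.86% over all genes, a value inside that interval. The peaks were also simple in structure. Only 10 lay on 2 or more exonic blocks, 6.54% against 23.5% of all WT peaks. Over all genes, peaks on several blocks were retained in 28.9% and those on 1 block in 7.97%, and in the enzyme genes in 3 of 10 and in 6 of 143 (4.20%, interval 1.94 to 8.85). The part of block number in the lower retention of the enzyme genes was not tested.

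Strong WT peaks of the enzyme genes, those with a small listed p-value, were rarely retained. This value is the deposited score, taken as a p-value, and is not a measure of methylation level. In the strongest 20% of all WT peaks by listed p-value, 45 belonged to enzyme genes, 29.4% of their WT peaks (interval 22.8 to 37.1). Of these 45, 4 were retained, 8.89% (interval 3.51 to 20.7) against 30.9% of all peaks of that class. The 4 were both peaks of Hs3st4 and those of Hs6st1 and B4galnt4. Of the 10 enzyme peaks with a listed p-value of 0 (6.54% of theirs, 5.09% of all), in Chst1, Chst2, Chst10, Fut8, Galnt2, Hs6st1, Mgat3, St3gal2, St6galnac5 and St8sia2, only that of Hs6st1 was retained, against 51.2% of all such peaks. In the weakest 20%, 3 of 24 enzyme peaks were retained, those of B4galt6, Mgat4b and Xylt2, 12.5% (interval 4.34 to 31.0) against 3.53%. By width, 40 enzyme peaks were in the widest 20% of all WT peaks, 26.1% of theirs (interval 19.8 to 33.6). Of these 40, 4 were retained (interval 3.96 to 23.1%), against 30.9%.

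**Figure D3:**
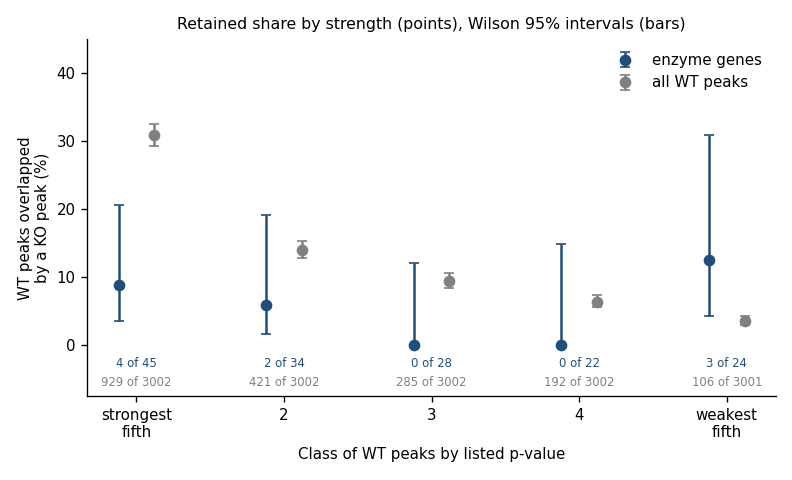
Share of WT peaks overlapped by a KO peak (%, y axis) in 5 equal classes of WT peaks ordered by listed p-value (x axis), for the enzyme genes (blue) and all WT peaks (grey); bars are Wilson 95% intervals, with counts below. The grey points fall from 30.9% to 3.53%, while the blue points stay between 0 and 12.5%.

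**Figure D4:**
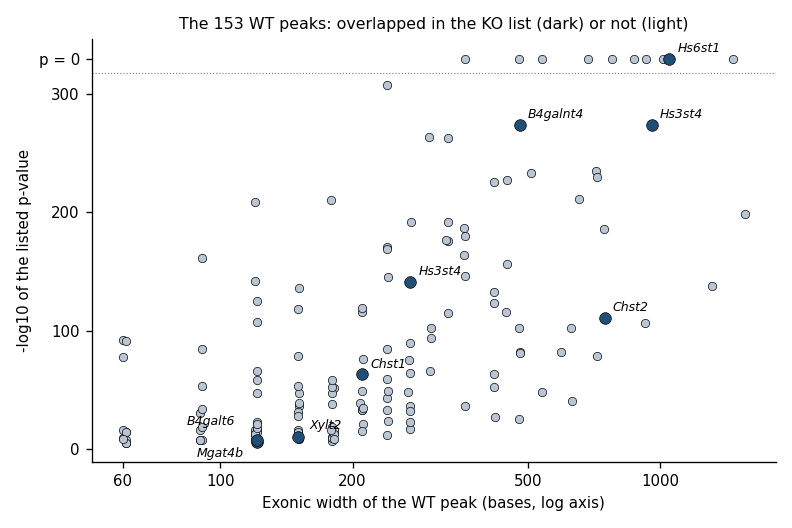
Exonic width in bases (log x axis) against -log10 of the listed p-value (y axis; values of 0 stand above the dotted line) for the 153 WT peaks of the enzyme genes; dark points are overlapped by a KO peak. Of the 10 peaks listed at 0, 1 is dark, and 3 dark points lie at the weak, narrow end.

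Retained peaks were rare in the enzyme genes with most WT peaks. Over all genes the share with a retained peak was 10.5%, 22.7% and 39.7% for 1, 2, and 3 or more WT peaks. In the enzyme genes it was 1 of 33 (Mgat4b), 6 of 23 (26.1%, interval 12.5 to 46.5) and 1 of 21 (Chst2, 4.76%, interval 0.846 to 22.7). At 4 or more WT peaks it was 0 of 9 enzyme genes (interval up to 29.9%), against 46.0% of all genes. The number of WT peaks per gene was near that of all genes, with 57.1%, 27.3% and 11.7% of the enzyme genes at 2, 3 and 4 or more, against 49.6%, 23.7% and 11.4% of all genes.

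Other genes of these pathways were examined as 3 lists. Of 22 other glycosylation enzyme genes with WT peaks, 0 had a retained one (Wilson interval up to 14.9%), against 20.6% of all genes with a WT peak. Among them were the chondroitin initiation gene Csgalnact1 with 4 WT peaks, and the epimerase genes Glce, Dse and Dsel and the sulfatase gene Sulf2 with 3 each. Pofut1, the O-fucosyltransferase gene for Notch, had 3 WT peaks and 1 KO peak elsewhere, and Ugt8a, which makes galactosylceramide, had a KO peak alone. None of the 7 genes for sugar and sulfate donors with a WT peak had a retained one. Their interval, up to 35.4%, includes the 20.6% of all genes. Gne, which starts sialic acid synthesis, had 4 WT peaks. In the same list, Slc35b3 had 3 WT peaks, and Slc35d1 had a KO peak alone. By comparison, 8 of 18 genes for proteins that carry these chains, among those with WT peaks, retained at least 1. That is 44.4% (interval 24.6 to 66.3), against 20.6% of all genes. The brain proteoglycan gene Ncan retained 3 of 4 peaks, Nrp1 2 of 2, App 2 of 3, Ncam1, whose protein carries polysialic acid, 2 of 4, Aplp2 1 of 2, the dystroglycan gene Dag1 1 of 4, and Sdc3 and Cspg5 1 of 1. Cspg4 retained none of 7 peaks, and Sdc1, Agrn, Bcan and Ptprz1 none of 3 each. Acan had 1 WT peak and a KO peak elsewhere, and Sdc4 and Gpc6 had a KO peak alone. The difference between carrier and enzyme genes was not tested, and these lists were drawn up with earlier results of the same data known.

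**Figure D5:**
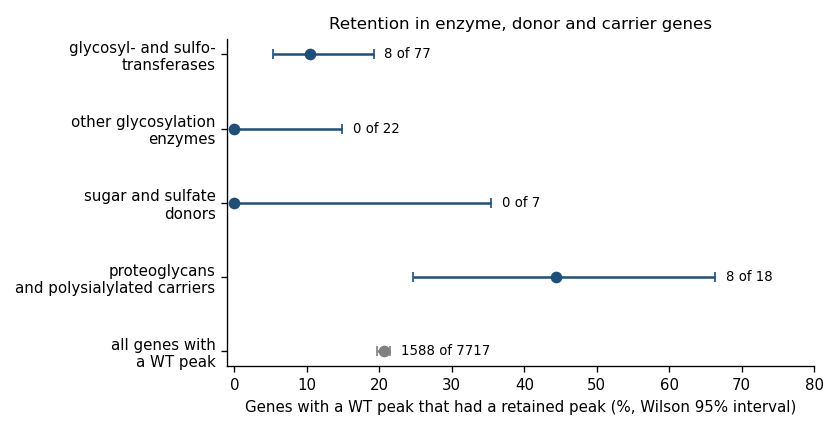
Percent of genes with a WT peak that had a retained peak (x axis) for the 77 enzyme genes, 3 lists of other pathway genes and all genes; bars are Wilson 95% intervals over genes. The carrier genes stand at 44.4%, all genes at 20.6%, the enzyme genes at 10.4% and the other lists at 0.

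A further 52 protein-coding genes that fit the name rule in the RefSeq table had no peak in the lists analysed here. They include the other polysialic acid synthase gene St8sia4, the hyaluronan synthase genes Has1 and Has2, Ndst2 and Ndst3, Chst13 and Chst14, Fut9, which makes the Lewis X epitope of neural progenitors, and Galnt genes such as Galnt3 and Galnt7. Without expression values these cannot be sorted into genes that were not expressed and genes without a detectable peak.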

How the data were processed

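The m6A-seq libraries (3 IP and 3 input WT, 2 IP and 2 input KO) came from polyadenylated RNA with a strand-keeping kit, per the labels. The authors deposited 1 consensus peak list per genotype, with position, strand, gene symbol, exonic blocks and a score. This deposited score lies between 0 and 0.00015 throughout and was taken as the p-value, possibly adjusted, that the authors' peak calling gave each peak. STAR and GRCm38 are named, per the submitters' processing notes. For the peak caller, its thresholds and how libraries were combined, details were not given in the sources used here. Values per library, depth and replicate error are unknown, and the smaller number of KO libraries cannot be told apart from genotype.

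Repeated entries were merged (15091 to 15009 WT, 3733 to 3673 KO). The number of enzyme peaks stayed at 153 WT and 17 KO, and 1 Chpf2 peak was joined with an entry named Mir671. A KO peak counted as overlapping from 1 shared exonic base on the same strand. Strength and width classes hold 20% of WT peaks each. Distances use RefSeq gene spans. Shares have Wilson 95% intervals. No hypothesis test was made. Python 3.11.15, numpy 2.4.6, pandas 2.3.3, scipy 1.17.1 and matplotlib 3.10.9 were used, and the overlap step was tested on simulated data. Every enzyme gene is named with its counts. Positions are given for genes with a KO peak and, in part or whole, for the gene with most WT peaks in each family, and other pathway genes are named from 3 WT peaks or with a KO peak, apart from an item not reported here. Members and lists were chosen with earlier results of these data known.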

Additional observations from a re-analysis of the deposited data

How the results depend on the processing

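No paired analysis was possible because each genotype has 1 list without values per library, which also left no replicate to omit. With a shared part of 50% or more of each peak required, 2.61% of the enzyme genes' WT peaks were retained (6.26% of all). Of their KO peaks, 23.5% lay over a WT peak (25.6% of all). At that setting 4 of 77 genes had a retained peak (10.9% of all genes), namely B4galt6, Chst1, Hs3st4 and Mgat4b. With the WT list shortened to its strongest 3673 peaks, 8.93% of the enzyme genes' WT peaks were retained (28.6% of all). Of their KO peaks, 29.4% lay over a WT peak (32.5% of all). A retained peak was left in 4 of 39 genes (B4galnt4, Chst2, Hs3st4 and Hs6st1), against 34.3% of all genes. Peaks in WT alone were listed for 29 of 45 genes, against 33.6% of all genes. With the stronger 50% of each list, 6.52% of the enzyme genes' WT peaks were retained (14.1% of all). At that setting 5 of 56 genes had a retained peak (19.3% of all genes) and the median WT width was 301 bases (298 over all). The median KO width was then 210 bases over the 10 enzyme peaks left and 210 over all. Within 500 and 5000 bases of the gene end, in place of 1000, lay 8.50% and 73.2% of the enzyme genes' WT peaks (7.49% and 57.2% of all). Whole spans, ignored strand and unmerged entries left the 8 retained genes the same. So did leaving out WT peaks weaker than the weakest KO peak, a setting chosen after seeing the data. Without the 498 KO peaks whose p-value recurs in 50 or more, also chosen after seeing the data, Mgat4b was no longer retained. At that setting 5.23% of the enzyme genes' WT peaks were retained (12.3% of all).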
